A study of Mus musculus with 16 samples.

Results

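Genes of matrix proteolysis were followed in pulmonary ECs, taken by gene name from the 54532 genes listed in each of 2 deposited tables. They were 4 matrix metalloproteinases (MMPs; Mmp2, Mmp8, Mmp9, Mmp14), the 4 tissue inhibitors of metalloproteinases (TIMPs; Timp1, Timp2, Timp3, Timp4) and 2 ADAMTS proteases (Adamts1, Adamts9), 10 genes in all. The first experiment compared 8-week-old male WT mice of the C57/BL6J strain, 24 h after intratracheal saline (n = 4) or 10 mg/kg LPS (n = 6), a bacterial outer membrane component used to model acute lung injury. The second compared Fgfr1 iΔEC/iΔEC mice (n = 3, labelled cko), which carry VE-cadherin-CreERT2 and floxed Fgfr1 and so delete this growth factor receptor in ECs after tamoxifen, with their Fgfr1 loxP/loxP littermates (n = 3, labelled wt). Both of these groups received tamoxifen and 2 mg/kg LPS for 24 h, so neither is an unexposed control, and the dose and the mouse line differ between the experiments. Lungs were digested with enzymes, CD45+ leukocytes were depleted and CD31+ cells were captured with magnetic beads before bulk RNA-seq. The labels give each library as a sample of its own without saying that it came from a separate mouse, so p-values measure the spread between samples, which may be technical in part.

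MMPs are zinc-dependent endopeptidases that cleave collagens, laminins and other matrix proteins as well as cytokines and receptors. Most are secreted as inactive proenzymes, and TIMPs block the active enzymes by sitting in the catalytic cleft. Mmp14 encodes a membrane-anchored collagenase that activates the proenzyme of the gelatinase Mmp2 on the cell surface, with the Timp2 protein as the bridge between them. Mmp8 (neutrophil collagenase) and Mmp9 (gelatinase B) are best known from the granules of neutrophils. Timp3 binds to the matrix and inhibits ADAM and ADAMTS proteases too. Adamts1 and Adamts9 encode secreted proteases that cleave proteoglycans such as versican. In the lung these enzymes act on the basement membrane between endothelium and epithelium, which leukocytes cross in injury.

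Values are FPKM, fragments on a gene per kilobase of its exons and per 1000000 of the library size the authors set, so levels of different genes can be set side by side. Reads on genes numbered 13478726 to 18807007 in the saline libraries, 17840221 to 19043015 in the LPS libraries, 15969575 to 17002788 in loxP/loxP and 16642177 to 16943522 in iΔEC/iΔEC. The endothelial label was checked with 10 marker genes. None of the 10 was at 0 in any library, and Pecam1, which encodes CD31, differed by -0.17 on the log2 scale between LPS and saline (SE 0.21, adjusted p = 0.516). The 10 markers had a median log2 fold change of -0.83. At an adjusted p of 0.05 or less, 6 of 10 were lower, against 23.7% of all genes tested. Among the 6 were Kdr (-1.63), Tek (-1.20), Tie1 (-1.07), Vwf (-1.05) and Cdh5 (-0.88). Ptprc, which encodes the depleted CD45, was nevertheless present, with a mean of 6.97 FPKM in saline and 34.6 FPKM in LPS (log2 fold change 2.19, SE 0.28, adjusted p = 0.000112). All 6 of 6 leukocyte markers rose with LPS, and their sum, led by Coro1a, was 66.0 to 229 FPKM in saline and 632 to 1534 FPKM in LPS.

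Several libraries stood apart from their groups in marker sums. Saline 1 had the fewest reads (13478726), the highest sum of endothelial markers in its group (5236 FPKM, the other 3 at 3160 to 3870) and the highest sum of neutrophil markers (1411 FPKM, the others at 78.1, 316 and 83.4). LPS 1 had the lowest endothelial sum of the LPS libraries (1361 FPKM, the others at 2051 to 3254) and the highest leukocyte sum (1534 FPKM, with LPS 2 next at 1438 FPKM). LPS 2 had a neutrophil sum of 6649 FPKM, the other 5 being at 1283 to 3429 FPKM, and LPS 6 a leukocyte sum of 632 FPKM, the other 5 being at 1038 to 1534 FPKM. Values without saline 1 are given below for the members it moved most, and without it 9 members pass the filter on low values, since Timp4 drops out.

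Promoter sequence is shown for the members that passed the test between LPS and saline and have an entry in the RefSeq promoter table for GRCm38.p6, which held 8 of the 10 members. Each sequence runs 5′ to 3′ on the strand of the gene, from 250 bases before the RefSeq start to 50 bases after it. Capitals mark matches to 1 of 4 motifs searched on both strands: the AP-1 site TGANTCA, the NF-kB site, the GC box GGGCGG and the TATA box TATAAA. Mmp8 is read from chr9:7558179-7558478 (+), Mmp14 from chr14:54431348-54431647 (+), Timp1 from chrX:20869916-20870215 (+) and Timp2 from chr11:118355362-118355661 (-).
Mmp8: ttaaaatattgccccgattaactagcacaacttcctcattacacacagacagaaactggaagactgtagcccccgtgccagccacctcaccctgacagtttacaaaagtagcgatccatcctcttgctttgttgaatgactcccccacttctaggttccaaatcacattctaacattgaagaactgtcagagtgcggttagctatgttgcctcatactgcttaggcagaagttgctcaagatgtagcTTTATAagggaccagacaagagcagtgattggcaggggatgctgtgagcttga
Mmp14: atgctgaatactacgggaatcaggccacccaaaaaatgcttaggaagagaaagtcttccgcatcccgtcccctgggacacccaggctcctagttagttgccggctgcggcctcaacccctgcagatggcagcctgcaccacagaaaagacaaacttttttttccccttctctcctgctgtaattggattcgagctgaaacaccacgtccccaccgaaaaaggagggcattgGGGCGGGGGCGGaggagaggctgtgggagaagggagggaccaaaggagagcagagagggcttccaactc
Timp1: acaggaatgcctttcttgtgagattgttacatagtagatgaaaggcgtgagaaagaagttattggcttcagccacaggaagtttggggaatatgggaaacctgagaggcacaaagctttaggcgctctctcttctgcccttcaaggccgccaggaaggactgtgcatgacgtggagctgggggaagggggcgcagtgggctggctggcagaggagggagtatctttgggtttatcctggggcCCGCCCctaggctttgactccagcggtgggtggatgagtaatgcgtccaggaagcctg
Timp2: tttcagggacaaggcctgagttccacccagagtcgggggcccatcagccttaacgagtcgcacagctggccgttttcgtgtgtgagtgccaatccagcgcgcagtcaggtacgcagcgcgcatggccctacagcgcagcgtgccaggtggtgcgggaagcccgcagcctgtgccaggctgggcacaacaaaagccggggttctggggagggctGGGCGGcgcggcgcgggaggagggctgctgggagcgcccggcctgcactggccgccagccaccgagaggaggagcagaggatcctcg
The GC box stands in the window of Mmp14 at -19 and -13, side by side, in that of Timp1 at -8 on the other strand and in that of Timp2 at -37, where position 1 is the RefSeq start and the first base of a match is given. It is found in 35.6% of 32817 promoters of the same length. The Mmp8 window holds a TATA box match at -3 on the other strand, a motif found in 13.6% of promoters. The GENCODE M21 start of Mmp8 lies 27 bases downstream of the RefSeq start, that of Mmp14 14 bases downstream, that of Timp1 at the same base and that of Timp2 329 bases upstream, so the Timp2 window is read within the GENCODE gene. None of the 8 windows holds the AP-1 letters, which stand in 7.81% of promoters. The NF-kB letters stand in 8.46% of promoters and, among the 8, in Adamts9, where the match at -15 overlaps a GC box. A match is a description of letters, and no match says only that the letters are not in these 300 bases.

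LPS was associated with a large rise of the inhibitor Timp1 and of 3 proteases, Mmp9, Mmp14 and Mmp8, and with a fall of the inhibitor Timp2. Mean Timp1 went from 1.33 FPKM in saline to 52.9 FPKM in LPS, and Mmp14 from 12.7 to 71.9 FPKM, while Timp2 went from 121 to 55.6 FPKM. Timp3, Timp4, Adamts1 and Adamts9 did not pass the test, and Mmp2 was lower at an adjusted p of 0.00524 without reaching the fold limit. In limma over 14893 genes, a call needed an adjusted p (Benjamini-Hochberg) of 0.05 or less together with a log2 fold change of 1 or more in size. By this rule 4 of 10 members rose, against 11.9% of all genes tested, and 1 of 10 fell, against 6.79%. The groups did not overlap for 5 of 10 members (Timp1, Timp2, Mmp2, Mmp9 and Mmp14), against 39.4% of all genes tested. The 10 log2 fold changes had a median of -0.11, and that of all genes tested was 0.013. Fold changes are on the log2(FPKM + 1) scale, which understates the change of low genes.

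**Figure D1:**
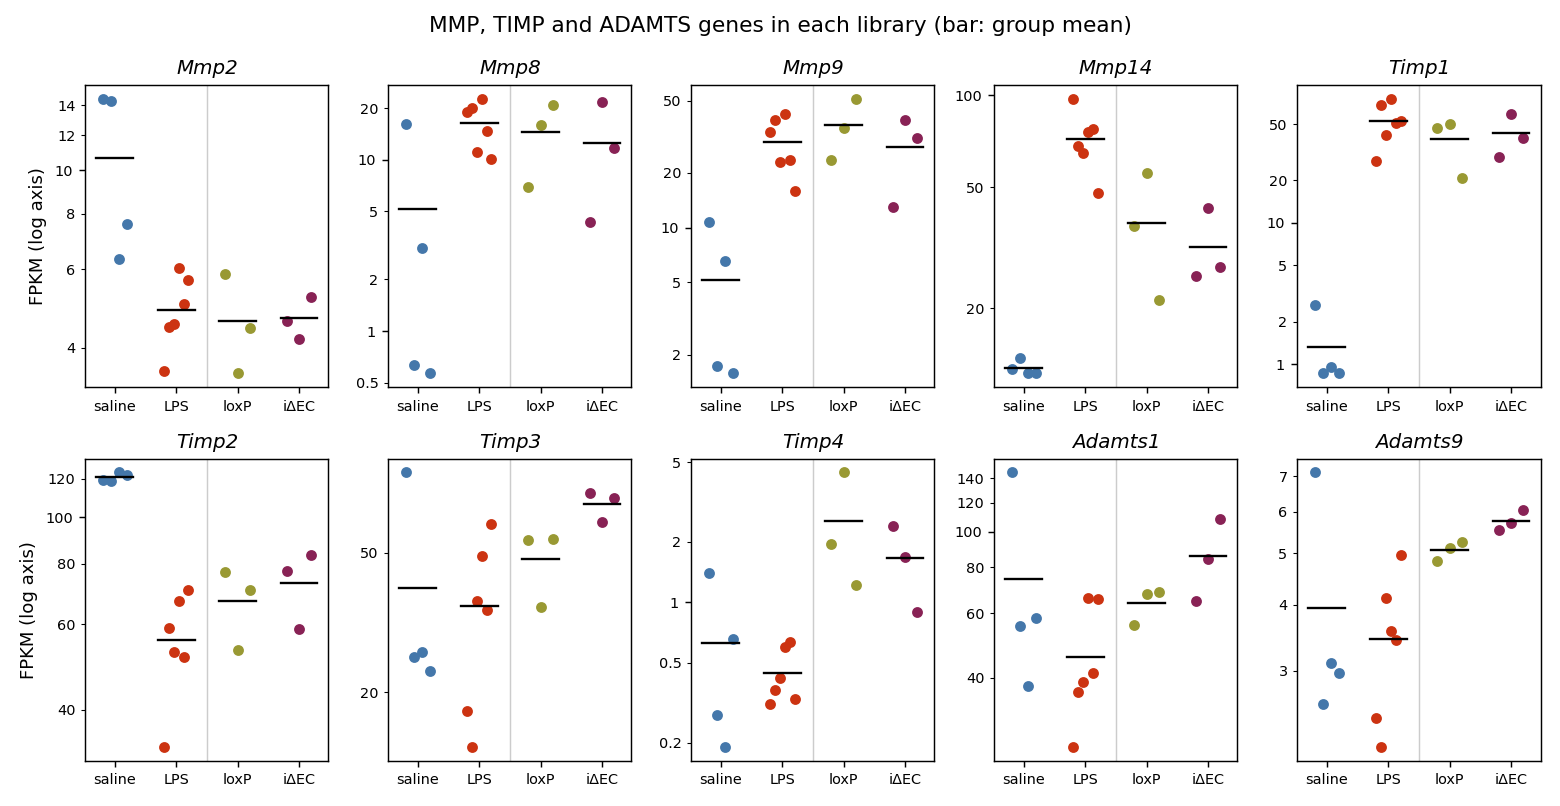
FPKM of each of the 10 genes in every library on a log axis, by group (saline, LPS at 10 mg/kg, loxP/loxP and iΔEC/iΔEC, the last 2 with LPS at 2 mg/kg), with black bars at group means. The LPS libraries lie above all saline libraries in Timp1, Mmp9 and Mmp14 and below them in Timp2 and Mmp2, and saline 1 lies alone among the saline points in Mmp8, Timp3 and Adamts9.

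Timp1 (ENSMUSG00000001131, chromosome X, 20870166 to 20874735, + strand, GRCm38) encodes a secreted inhibitor of most soluble MMPs that is induced by inflammatory cytokines in many cells. It was at 2.64, 0.865, 0.946 and 0.858 FPKM in saline 1 to 4. In LPS it ranged from 27.3 to 76.0 FPKM with a median of 51.8 FPKM. Every LPS library was at least 10 times above the highest saline library, and the groups did not overlap. The log2 fold change was 4.53 (SE 0.28, 95% interval 3.90 to 5.15, adjusted p = 1.10e-06), and 4.76 without saline 1. Timp1 lies within Syn1, a neuronal gene on the opposite strand, but no exonic base is shared and Syn1 was at 0.041 to 0.434 FPKM. Within the LPS group, LPS 1 had the least Timp1 and LPS 4 the most, and the 6 libraries had the same order in Timp1 as in the sum of endothelial markers. In the second experiment the order was reversed in iΔEC/iΔEC, and in loxP/loxP the library with the lowest endothelial sum, 2280 FPKM, had the most Timp1. Per 1000 FPKM of endothelial markers, Timp1 was at 0.244 to 0.504 in saline and at 17.7 to 23.4 in LPS.

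Timp2 (ENSMUSG00000017466, chromosome 11, 118301069 to 118355740, - strand) encodes the inhibitor that also serves Mmp14 in the activation of Mmp2. It was the most abundant member in saline, at 119.5, 119.0, 123.7 and 122.1 FPKM, which is the narrowest spread of any member there relative to its mean. In LPS it ranged from 33.4 to 70.6 FPKM with a median of 55.7 FPKM. The highest LPS library was well under the lowest saline library. The log2 fold change was -1.15 (SE 0.19, 95% interval -1.56 to -0.74, adjusted p = 0.000479). The 10 endothelial markers, led by Cldn5, summed to 5236, 3160, 3870 and 3253 FPKM in saline and to 1361 to 3254 FPKM in LPS. Of the 10, 4 fell (Kdr, Tek, Tie1 and Vwf). The Vwf groups overlapped, and its passing of the fold limit rests on saline 1. That library was at 117 FPKM, the other saline libraries at 52.8 to 81.6 FPKM. With values scaled on the endothelial markers instead, Timp2 had a log2 fold change of -0.39 (adjusted p = 0.0527) and was not called, in a scaling that shifted the median of all genes to 0.60. Per 1000 FPKM of endothelial markers, Timp2 was at 32.0 to 37.7 in saline 2, 3 and 4, at 22.8 in saline 1 and at 18.4 to 25.6 in LPS, so the groups overlapped through saline 1 only. In bulk libraries fewer ECs in the fraction and less RNA of a gene in each EC cannot be told apart.

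Timp3 (chromosome 10, 86300372 to 86349506, + strand), the inhibitor that stays bound to matrix, was at 84.6, 25.3, 26.1 and 23.1 FPKM in saline. In LPS it ranged from 14.0 to 60.2 FPKM with a median of 35.4 FPKM. The groups overlapped, and LPS 1 and LPS 2 were under every saline library while LPS 3 to 6 were above saline 2, 3 and 4. The log2 fold change was -0.11 (SE 0.46, 95% interval -1.11 to 0.89, adjusted p = 0.852) and 0.32 without saline 1. Its interval does not exclude differences of up to about 1 on the log2 scale in either direction. Timp3 lies within Syn3 on the opposite strand and shares 1733 exonic bases with it, and Syn3 was at 0.025 to 0.234 FPKM. Timp4, an inhibitor known for a narrow tissue range, was the lowest member, at 1.40, 0.276, 0.190 and 0.655 FPKM in saline and 0.313 to 0.633 FPKM in LPS. Its log2 fold change was -0.12 (SE 0.19, adjusted p = 0.599). Timp4 is within Syn2 on the opposite strand and shares 90 exonic bases with it, and Syn2, at 0.039 to 0.726 FPKM, reached the level of Timp4 itself. The strand setting of the counting is not given, so reads of such partners cannot be told apart.

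The makeup of the TIMP transcripts differed between the groups. Timp1 made up 0.585% to 1.27% of the summed FPKM of the 4 TIMPs in saline and 28.7% to 48.5% in LPS. The TIMP sum itself was 145 to 208 FPKM in saline and 78.8 to 192 FPKM in LPS, with overlapping groups. The sum of the 4 MMPs was 22.0 to 54.2 FPKM in saline and 79.3 to 154 FPKM in LPS, without overlap. The ratio of the TIMP sum to the MMP sum was 3.84 to 6.68 in saline and 0.513 to 2.32 in LPS, again without overlap. LPS 1 had the lowest ratio and the lowest TIMP sum, and LPS 6 the highest ratio. The other 4 LPS libraries had ratios of 1.08 to 1.31. These are transcript levels over all cells of the fraction and not amounts of active enzyme or inhibitor.

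**Figure D2:**
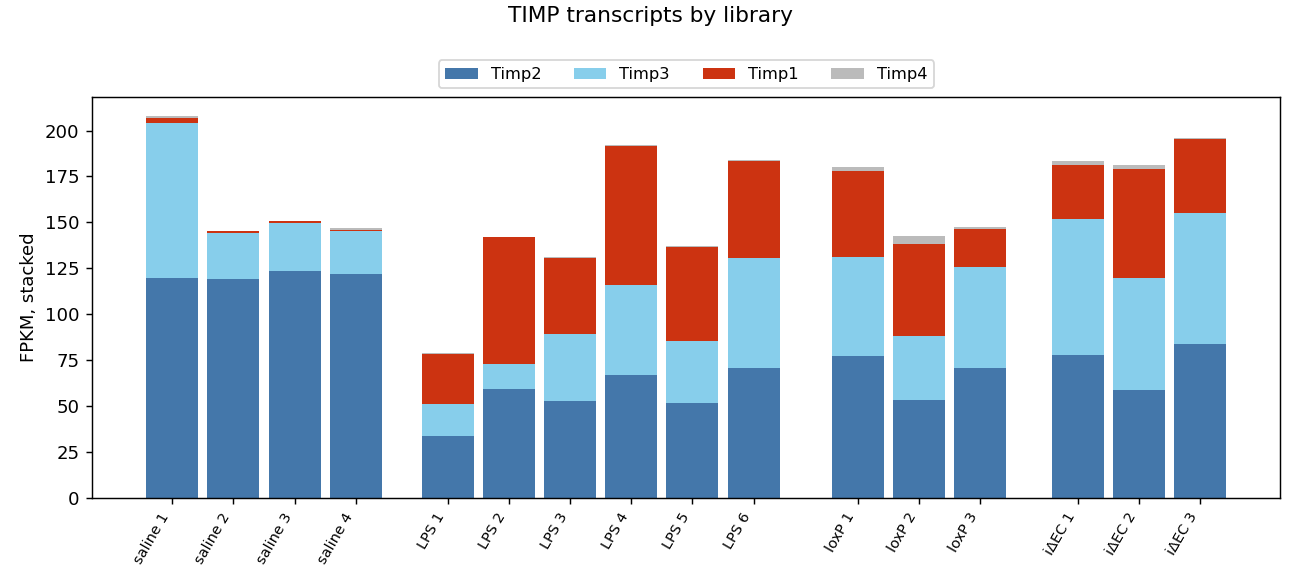
Stacked FPKM of Timp2, Timp3, Timp1 and Timp4 in each of the 16 libraries, grouped by condition. Timp1 is a thin band of at most 1.27% in the saline bars and 28.7% to 48.5% of the LPS bars, and Timp2 is shorter in every LPS bar than in any saline bar.

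Mmp14 (ENSMUSG00000000957, chromosome 14, 54431612 to 54445364, + strand), the membrane-anchored collagenase, was at 12.7, 13.7, 12.2 and 12.2 FPKM in saline. In LPS it ranged from 47.7 to 97.5 FPKM with a median of 72.2 FPKM. The groups did not overlap, and the log2 fold change was 2.38 (SE 0.17, 95% interval 2.01 to 2.75, adjusted p = 2.06e-06), the same to 2 decimals without saline 1. It was the fourth most abundant member in saline and the most abundant in LPS, although its LPS range overlapped those of Timp2 and Timp1. Of the 8 macrophage and monocyte markers, 6 were called higher in LPS. Their sum, led by Csf1r, was 43.7, 22.3, 27.2 and 21.7 FPKM in saline and 315 to 699 FPKM in LPS. Mmp14 and this sum were both highest in LPS 1 and lowest in LPS 6, whereas in loxP/loxP library 3 had the highest sum, 256 FPKM, and the least Mmp14, 21.3 FPKM. Per 1000 FPKM of these markers, Mmp14 was at 290 to 617 in saline and 129 to 167 in LPS, lower in LPS without overlap. The marker Marco was at 0 in 1 library. Mrc1 (log2 fold change 0.15) was not called. Siglecf went the other way (-0.53, adjusted p = 0.0402) without reaching the fold limit. The part of these cells in the Mmp14 difference was not tested.

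Mmp2 (chromosome 8, 92827291 to 92853420, + strand), the gelatinase that Mmp14 activates, was at 14.5, 14.3, 6.33 and 7.60 FPKM in saline. In LPS it ranged from 3.55 to 6.05 FPKM with a median of 4.77 FPKM. Saline 1 and 2 lay well above saline 3 and 4, and the highest LPS library was just under the lowest saline library. The log2 fold change was -0.93 (SE 0.22, 95% interval -1.42 to -0.43, adjusted p = 0.00524), which is under the fold limit. It was -0.76 (adjusted p = 0.0146) without saline 1 and -0.26 (adjusted p = 0.383) with values scaled on the endothelial markers. Fibroblast markers, led by Inmt, were also lower in sum, at 283 to 458 FPKM in saline and 46.9 to 111 FPKM in LPS. Most of the saline sum was Inmt, at 232 to 408 FPKM in saline and 22.0 to 71.4 FPKM in LPS. Of 6 fibroblast markers tested, 2 were called lower and 1 higher (Pi16). The mural cell markers, led by Acta2, overlapped, at 25.6 to 122 FPKM in saline and 30.9 to 57.2 FPKM in LPS, with 2 of 7 lower. Epithelial markers, led by Sftpc, summed to 1063 to 2803 FPKM in saline and 258 to 924 FPKM in LPS, without overlap. Of the 7 tested, 2 were lower (Sftpc and Scgb1a1), and the median log2 fold change was -0.52. Sftpc alone was at 799 to 1971 FPKM in saline and 96.1 to 407 FPKM in LPS. Sftpa1 (0.30) and Epcam (0.16) were above 0 and not called. The 5 mesothelial markers summed to at most 0.648 FPKM in any library, and Wt1 had at most 3 reads. The part of fibroblasts or epithelial cells in the Mmp2 values was not tested.

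Mmp9 (ENSMUSG00000017737, chromosome 2, 164940780 to 164955850, + strand) was at 10.7, 1.74, 6.57 and 1.58 FPKM in saline. In LPS it ranged from 15.8 to 42.2 FPKM with a median of 28.6 FPKM. The groups did not overlap, with a log2 fold change of 2.54 (SE 0.43, 95% interval 1.59 to 3.49, adjusted p = 0.000644). Mmp8 (ENSMUSG00000005800, chromosome 9, 7558456 to 7568485, + strand) was at 16.3, 0.634, 3.05 and 0.566 FPKM in saline and ranged from 10.1 to 22.8 FPKM in LPS, with a median of 17.0 FPKM. Its groups overlapped through saline 1 only, and the log2 fold change of 2.19 (SE 0.58, 95% interval 0.91 to 3.46, adjusted p = 0.00838) was 2.94 (adjusted p = 8.08e-05) without that library. Mmp9 without saline 1 had a log2 fold change of 2.95.

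Neutrophil markers varied with both genes from library to library. The 9 markers, led by S100a9, summed to 1411, 78.1, 316 and 83.4 FPKM in saline and to 1283 to 6649 FPKM in LPS. Of the 9, 5 rose (S100a8, S100a9, Ly6g, Cxcr2 and Csf3r), and Camp, Ngp, Ltf and Retnlg did not pass the test. Ly6g was at 0 in saline 4. In saline the order of the libraries by Mmp8 and Mmp9 was near that of the neutrophil sum, with saline 1 first and saline 3 second in all 3. Per 1000 FPKM of neutrophil markers, Mmp8 was at 6.79 to 11.6 in saline and 3.03 to 7.88 in LPS, and Mmp9 at 7.59 to 22.2 and 5.90 to 14.4. The Mmp9 ranges overlapped through saline 1 only, with saline 2, 3 and 4 at 18.9 to 22.2, above every LPS library. LPS 2, which had the highest neutrophil sum, set both lower limits in LPS, which were 5.97 for Mmp8 and 9.52 for Mmp9 without it. The ratio of Mmp9 to Mmp8 was 0.656 in saline 1 and 2.15 to 2.79 in the other saline libraries, and 1.57 to 2.08 in LPS. The part of neutrophils in the Mmp8 and Mmp9 differences was not tested.

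**Figure D3:**
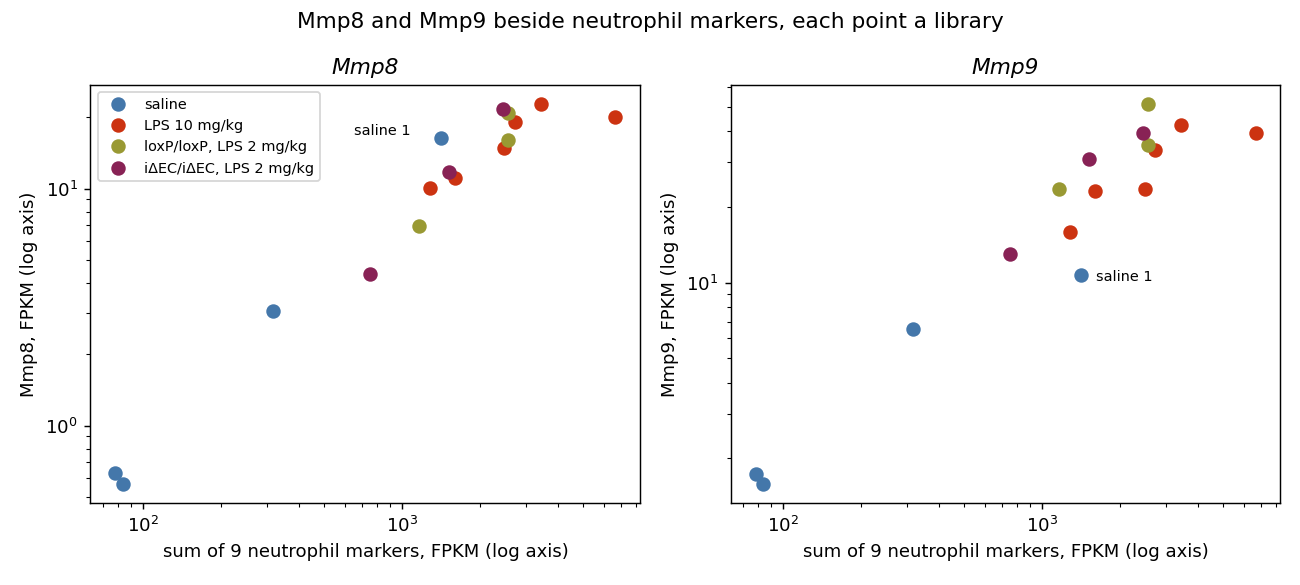
Mmp8 (left) and Mmp9 (right) in FPKM against the summed FPKM of 9 neutrophil markers, both on log axes, with each of the 16 libraries as a point coloured by group. Saline 2 and 4 lie at the lower left, and saline 1, with a marker sum of 1411 FPKM, lies among the LPS libraries on the marker axis.

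Adamts1 (chromosome 16, 85793827 to 85803113, - strand) was the second most abundant member in saline, at 145, 55.4, 38.0 and 58.1 FPKM, and ranged from 25.9 to 65.9 FPKM in LPS with a median of 40.1 FPKM. The groups overlapped, and its log2 fold change of -0.57 (SE 0.36, 95% interval -1.36 to 0.21, adjusted p = 0.196) was -0.19 without saline 1. Adamts9 (chromosome 6, 92772699 to 92943492, - strand) was at 7.12, 2.59, 3.10 and 2.97 FPKM in saline and 2.15 to 4.97 FPKM in LPS, with a log2 fold change of -0.10 (SE 0.25, adjusted p = 0.738) that was 0.16 without saline 1. Saline 1 was the highest saline library for both proteases, as it was for Timp3. Adamts9 shares 1381 exonic bases with A730049H05Rik and 424 with Gm15737 on the opposite strand, which were at 0.380 and 0.309 FPKM at most. It also overlaps the antisense gene 9530026P05Rik, at 0.274 to 3.53 FPKM, with no exonic base shared.

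**Figure D4:**
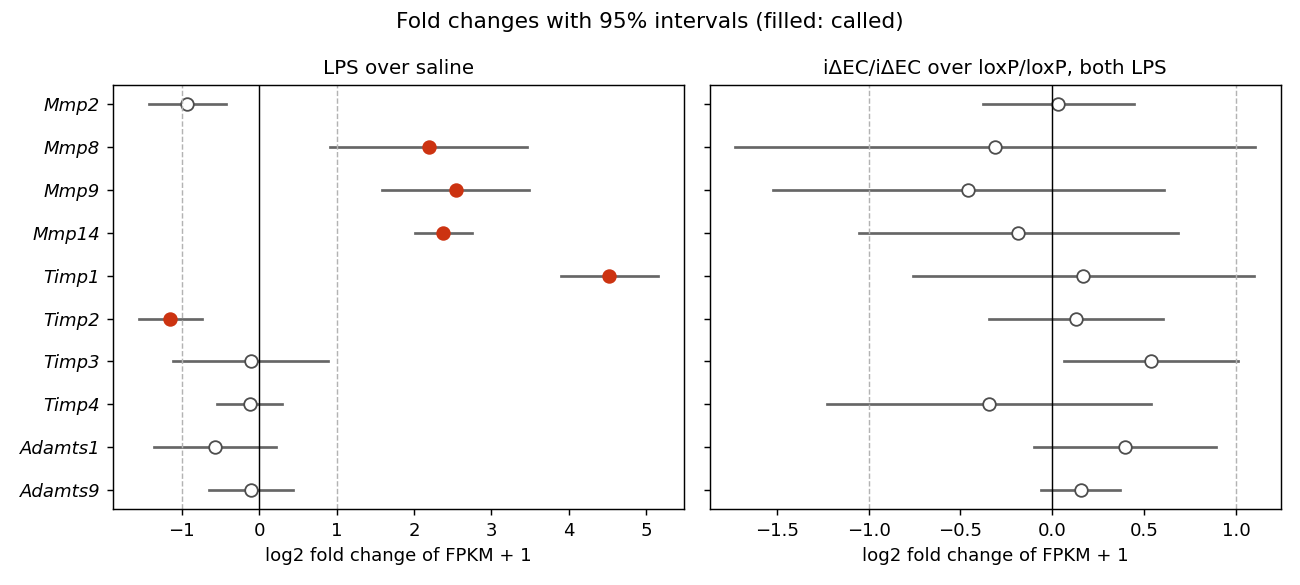
Log2 fold change of FPKM + 1 of each gene with its 95% interval, for LPS over saline (left) and iΔEC/iΔEC over loxP/loxP (right), with filled points for genes called and dashed lines at the fold limit. Timp1, Mmp9, Mmp14 and Mmp8 lie to the right and Timp2 to the left in LPS over saline, and no point is filled on the right, where the Timp3 interval of 0.06 to 1.01 alone excludes 0.

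By level, the saline order of the means was Timp2, Adamts1, Timp3, Mmp14, Mmp2, Mmp9, Mmp8, Adamts9, Timp1 and Timp4. Among neighbours in this order, only Timp3 and Mmp14 had ranges that did not overlap. In LPS the order was Mmp14, Timp2, Timp1, Adamts1, Timp3, Mmp9, Mmp8, Mmp2, Adamts9 and Timp4, and the neighbours with separate ranges were Mmp8 and Mmp2, and Adamts9 and Timp4. Among the genes tested, mean Timp1 stood at the 18.8 percentile of levels in saline and at the 92.1 percentile in LPS, and mean Timp2 at 98.1 and 92.6.

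Genes whose library-to-library pattern was most like that of a member were sought over all 16 libraries, as the Pearson r of deviations from the group mean among 12328 genes. Points share libraries, depth and cell makeup, so r is a description. Mmp8 was most like Cxcr2 (r = 0.97), the chemokine receptor of neutrophils, Alox5ap (0.96) and Ccr1 (0.96). Mmp9 was most like Cxcr2 (0.95), Gm16556 (0.94) and Mmp8 itself (0.94), and its r with Mmp8 was 0.96 without saline 1. Timp2 was most like Ephb4 (0.97), Acvrl1 (0.96) and Pros1 (0.96), the first of them a receptor of venous ECs and the second a BMP receptor of ECs. Timp1 was most like Ctps (0.94), Fads3 (0.93) and the neutrophil chemokine Cxcl1 (0.93). Mmp14 was most like Matk (0.90), Tubb6 (0.90) and Actr3 (0.88), and Mmp2 was most like Bgn (0.86), which encodes the matrix proteoglycan biglycan, Igfbp5 (0.82) and Cytl1 (0.81). Timp3 and Adamts9 were alike (0.92, and 0.87 without saline 1), with Mical2 the nearest gene to both (0.95). Adamts1 was most like Dusp8, Klf4 and Fgfr1 (0.92 each). Its r with Adamts9 was 0.81, and 0.59 without saline 1, and its r with Timp3 was 0.79 and 0.62. The r values with genes outside the 10 members were not recomputed without saline 1. Mmp14 and Timp2 ran opposite within groups (-0.71, and -0.71 without saline 1).

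The other genes of the pathway were counted from lists of the families and their partners, to be read against the 11.9% of all genes tested that rose and the 6.79% that fell. Of 19 other MMPs, 6 passed the filter on low values, 2 of them rose and 3 fell. Mmp25 (log2 fold change 1.52), a membrane-anchored MMP of leukocytes, and the stromelysin Mmp3 (1.05) rose, and Mmp15 (-1.59), a membrane-anchored relative of Mmp14, Mmp28 (-1.41) and Mmp11 (-1.20) fell. Mmp15 was at 15.7, 26.9, 23.7 and 26.0 FPKM in saline and 3.26 to 9.33 FPKM in LPS, so this relative of Mmp14 moved the other way without overlap. Of the MMPs not tested, Mmp7 had no read in any library, and Mmp12, the macrophage elastase, was at 0 to 0.137 FPKM in saline and 0.221 to 0.833 FPKM in LPS. Of 22 other ADAMTS and ADAMTS-like (Adamtsl) genes, 12 were tested, 2 rose (Adamts4, 1.88, and Adamtsl4, 1.16) and 2 fell (Adamts10, -1.93, and Adamtsl5, -1.30). Of 9 ADAM sheddases, which release membrane proteins, 6 were tested, and Adam8 (2.81) and Adam9 (1.06) rose while none fell. The groups of Mmp3, Adamtsl4 and Adam8 overlapped through saline 1 only, which was at 6.00, 13.6 and 22.9 FPKM.

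Activators and binding partners of MMPs included Lcn2, the gene of largest change in these lists. Of 20 genes, 16 were tested, 9 rose and 2 fell, with a median log2 fold change of 1.20. Lcn2, whose protein binds Mmp9, was at 21.5, 3.67, 7.54 and 3.53 FPKM in saline and 741 to 1818 FPKM in LPS (log2 fold change 7.25). Cd44, a cell surface anchor of Mmp9, rose by 2.53 on the log2 scale and Lrp1, an uptake receptor for proteases and TIMPs, by 2.02. Reck, a membrane inhibitor of Mmp2, Mmp9 and Mmp14, fell by 1.26 on the log2 scale and the convertase Pcsk5 fell by 1.44. Furin, the convertase that activates proMmp14, rose by 1.26, and Thbs1 (1.90), Plaur (1.75) and Plat (1.63) rose too. The groups overlapped through saline 1 only in Thbs1 and Plat, which were at 69.5 and 70.4 FPKM there. In the other saline libraries they were at 8.84 to 11.9 and 7.46 to 9.56 FPKM. Of 16 matrix substrates, 14 were tested. The versican gene Vcan (1.60) and the fibronectin gene Fn1 (1.36) rose and the elastin gene Eln (-1.31) fell. The groups of Vcan and Fn1 overlapped through saline 1 only, which was at 2.22 and 21.6 FPKM. By adjusted p alone, without the fold limit, 3 of the 14 were higher and 7 lower. Of all genes tested, 29.5% were higher and 23.7% lower by that rule. The list median was -0.49. Eln was at 209 FPKM in saline 1, at 48.4 to 56.7 FPKM in the other saline libraries and at 13.4 to 54.5 FPKM in LPS. Its groups overlapped, and its passing of the fold limit rests on saline 1.

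**Figure D5:**
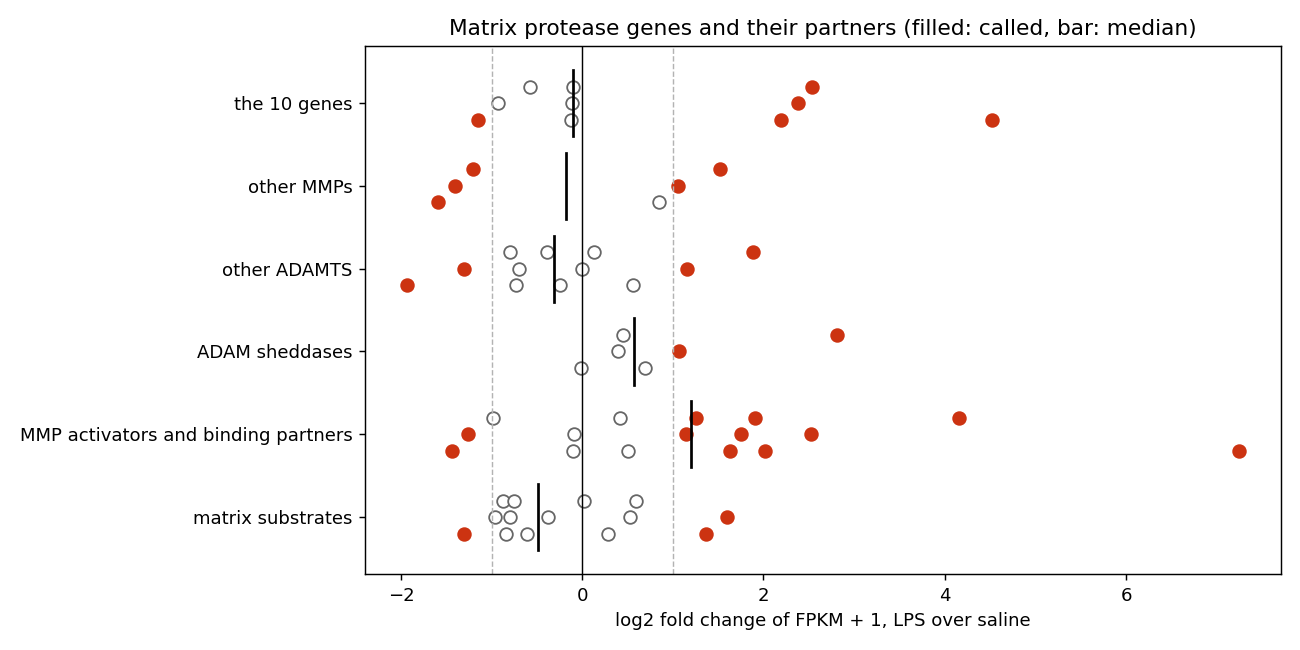
Log2 fold change of FPKM + 1 in LPS over saline of each gene tested, by list, with filled points for genes called, bars at list medians and dashed lines at the fold limit. The activators and binding partners have the highest median, 1.20, and extend to Lcn2 at 7.25.

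In the second experiment Fgfr1 checked the labels. It was at 2.90, 2.91 and 2.59 FPKM in loxP/loxP and 0.683, 1.41 and 1.15 FPKM in iΔEC/iΔEC, without overlap (log2 fold change -0.88, SE 0.16, 95% interval -1.26 to -0.50, adjusted p = 0.960). Of 14944 genes, 0 were called in either direction in limma (0.0%), Fgfr1 included, with a smallest adjusted p of 0.732, and 0 in limma-voom on read numbers. At an unadjusted p under 0.05 there were 663 genes (4.44%) in limma without pairing, and 1 of the 10 members, Timp3, was among them. With the replicate numbers as a block there were 1150 such genes, and with 1 library left out 402 to 1075. Groups did not overlap for 2 of 10 members, Timp3 and Adamts9, against 10.2% of all genes tested.

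Timp3 was at 54.4, 35.1 and 54.7 FPKM in loxP/loxP and 74.1, 61.1 and 71.6 FPKM in iΔEC/iΔEC. Every iΔEC/iΔEC library was above every loxP/loxP library, and the log2 fold change was 0.54 (SE 0.20, 95% interval 0.06 to 1.01, adjusted p = 0.960). It was 0.33 without loxP 2 and 0.29 with values scaled on the endothelial markers. Adamts9 was at 4.83, 5.12 and 5.25 FPKM in loxP/loxP and 5.53, 5.70 and 6.04 FPKM in iΔEC/iΔEC, a log2 fold change of 0.16 (SE 0.09, adjusted p = 0.960). Adamts1 was at 55.6, 67.6 and 68.5 FPKM in loxP/loxP and 64.7, 84.5 and 109 FPKM in iΔEC/iΔEC, with overlap (0.40, SE 0.21, adjusted p = 0.960), and 0.21 without iΔEC/iΔEC library 3. Pairing by replicate number is inferred from correlations and is not given by the labels, and the errors above are unpaired. Within each of the 3 same-numbered pairs, Timp3, Adamts9 and Adamts1 were all higher in iΔEC/iΔEC. With the pairs as a block the SE was 0.12 for Timp3 (adjusted p = 0.567) and 0.13 for Adamts1 (adjusted p = 0.617). Endothelial markers were also somewhat higher in sum in iΔEC/iΔEC, at 3611, 2569 and 3303 FPKM against 2854, 2280 and 2375 FPKM. Epithelial markers were lower in sum, at 421, 1086 and 834 FPKM against 908, 1647 and 2894 FPKM, with 0 of 8 called. Within each of the 3 pairs the epithelial sum was lower and the endothelial sum higher in iΔEC/iΔEC. The part of these cells was not tested. With values scaled on the endothelial markers the Adamts9 log2 fold change was -0.051, and that of all genes had a median of -0.18.

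The other members overlapped between the genotypes. Timp1 was at 46.8, 49.9 and 21.0 FPKM in loxP/loxP and 29.5, 59.6 and 40.1 FPKM in iΔEC/iΔEC, and the interval of its log2 fold change of 0.17 ran from -0.76 to 1.10. Mmp14 was at 37.1, 55.8 and 21.3 FPKM and at 25.6, 42.7 and 27.3 FPKM, with an interval of -1.05 to 0.68. Timp2 was at 76.9, 53.2 and 70.8 FPKM and at 77.5, 58.6 and 83.5 FPKM, with an interval of -0.34 to 0.60, and it was higher in iΔEC/iΔEC within each of the 3 pairs. Differences within these intervals are not excluded with 3 libraries a group. The intervals are not limits of detection, since no gene was called, the deleted Fgfr1 included. Mmp8 was at 6.94, 16.1 and 20.9 FPKM in loxP/loxP and 4.36, 21.8 and 11.7 FPKM in iΔEC/iΔEC, and Mmp9 at 23.5, 35.3 and 51.3 FPKM and at 13.0, 39.1 and 31.0 FPKM. Their log2 fold changes were -0.31 (95% interval -1.72 to 1.10) and -0.46 (-1.52 to 0.61). Neutrophil marker sums were 1164, 2552 and 2555 FPKM in loxP/loxP and 749, 2442 and 1517 FPKM in iΔEC/iΔEC, lowest in library 1 of each genotype, as Mmp8 and Mmp9 were. Mmp2 was at 5.86, 3.50 and 4.43 FPKM and at 4.60, 4.18 and 5.20 FPKM (log2 fold change 0.03), and Timp4 at 1.96, 4.44 and 1.21 FPKM and at 2.41, 1.68 and 0.897 FPKM (-0.35). Timp1 made up 14.2% to 35.0% of TIMP transcripts in loxP/loxP and 16.1% to 32.9% in iΔEC/iΔEC.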

How the data were processed

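RNA-seq was measured in bulk on bead-isolated mouse pulmonary ECs in 16 libraries, 10 in the first experiment and 6 in the second. The authors sequenced on an Illumina NovaSeq, aligned to GRCm38 with HISAT2 (2.0.5) and counted on genes with featureCounts (1.5.0-p3; tool versions per the submitters' processing notes), and tested with DESeq2. Strandedness, the treatment of reads with several alignments and the annotation release are not given in the sources used here. The authors deposited FPKM for 54532 genes per table, with each gene's length. Read numbers recovered from FPKM and length were whole for 100.0% of values (tolerance 0.01). The library sizes within the FPKM, which correspond to 13.2 to 22.1 in units of 1000000 reads, were not the read totals, so the authors had scaled them, and the deposited values were not rescaled here. GENCODE M21 held 54495 of the gene identifiers, 53585 of them (98.3%) at the same start and end. For 11 genes whose symbol in the second experiment differed, that of the first was used.

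log2(FPKM + 1) was compared within each experiment by limma 3.58.1 in R 4.3.3 (lmFit, eBayes with trend) after genes averaging under 0.5 FPKM in the libraries compared were left out, without a replicate block, and p-values were adjusted by Benjamini-Hochberg over all genes tested. The steps were tested on simulated data. Tables and figures were made in Python 3.11.15 with matplotlib 3.10.9, numpy 2.4.6, pandas 2.3.3 and scipy 1.17.1. The alternatives tried were a pseudocount of 0.1, no filter, scaling on total reads, quantile normalization, scaling on endothelial markers, limma-voom on read numbers, a replicate block, no fold limit and leaving out each library.

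Replicate numbers did not pair the saline and LPS libraries, whose same-numbered deviations correlated at 0.097, -0.16, -0.21 and -0.12. In the second experiment, of littermates, same-numbered libraries correlated at 0.25, 0.18 and 0.19 and all others negatively. Deviations from a group mean cancel out, so negative values elsewhere follow in part from the positive ones. The labels do not give pairs, so pairing by number is an inference, and the main fit is unpaired.

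The members and gene lists were chosen with earlier results of these data known. All members are named, and of each pathway list the at most 4 genes of largest fold change among those called, of which 1 is not reported here. Mmp3, Pcsk5, Reck, Thbs1, Plaur, Plat, Furin, Mmp7, Mmp12 and the matrix genes of the closing section fall outside this rule and were named after their values were seen, as were marker genes other than the most abundant of each list. Reads limit the precision of low values and are not independent molecules, and intervals cover the spread between libraries only.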

Additional observations from a re-analysis of the deposited data

Results flagged for a closer look

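In 4 of the 10 genes, saline 1 was far above saline 2, 3 and 4. Its gap to the nearest library, as a share of the range of the group, passed the 95% limit of Dixon's test for 4 values. Mmp8 was at 16.3 FPKM in saline 1 and at 0.566 to 3.05 FPKM in the others. Timp1 was at 2.64 FPKM against 0.858 to 0.946 FPKM, which is still far under the LPS libraries. Timp3 was at 84.6 FPKM against 23.1 to 26.1 FPKM, and Adamts9 at 7.12 FPKM against 2.59 to 3.10 FPKM. Groups of 3 were not examined, which leaves out Timp3 in loxP 2 (35.1 FPKM against 54.4 and 54.7 FPKM). In the saline and LPS groups 20 group values were examined, and chance gives about 1 in 20. The 4 come from the same library and are not independent of each other. Saline 1 also had the fewest reads on genes (13478726), and the highest sum of the saline group in 7 of the 8 marker lists: endothelial (5236 FPKM), epithelial (2803 FPKM), neutrophil (1411 FPKM), leukocyte (229 FPKM), mural (122 FPKM), macrophage and monocyte (43.7 FPKM) and mesothelial (0.445 FPKM), but not fibroblast. The part of these in its values was not tested.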

How the results depend on the processing

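Timp1, Mmp8, Mmp9 and Mmp14 were called higher in LPS under every alternative run. Timp2 was called lower under all but the scaling on endothelial markers, where 0 members were lower (Timp2 -0.39, adjusted p = 0.0527) and the median of all genes moved from 0.013 to 0.60. That scaling turned Adamts1 (0.18), Timp3 (0.63), Adamts9 (0.49) and Timp4 (0.12) positive and gave 4608 genes higher and 184 lower. Mmp2 was called too, making 2 members lower, with a pseudocount of 0.1 (1840 genes lower), on total reads, in limma-voom (2008 lower) and with no fold limit (4399 genes higher, 3529 lower). Quantile normalization made 3 members lower, Mmp2 and Adamts1 (-1.04) beside Timp2. The main split of 1768 genes higher and 1011 lower became 1378 and 1453 on total reads (median of all genes -0.15) and 1366 and 1326 with quantile normalization.

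Leaving out each library in turn gave 1641 to 1947 genes higher, 910 to 1107 lower, 4 members higher throughout and 1 to 2 lower, Mmp2 passing without saline 3 or saline 4. Timp3 then ranged from -0.29 to 0.32 and Adamts9 from -0.23 to 0.16. In iΔEC/iΔEC over loxP/loxP, no gene was called under any alternative run. The log2 fold change ranged from -0.80 to 0.24 for Mmp8, -0.76 to -0.0053 for Mmp9, -0.54 to 0.14 for Mmp14, -0.22 to 0.41 for Timp1, -0.027 to 0.28 for Timp2, -0.11 to 0.19 for Mmp2, -0.63 to 0.017 for Timp4, 0.33 to 0.64 for Timp3 and 0.21 to 0.58 for Adamts1. Scaling on endothelial markers turned Timp2 (-0.11), Timp1 (-0.068), Mmp2 (-0.16) and Adamts9 (-0.051), and total reads turned Mmp2 (-0.024). The causes were not tested.

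With the replicate block, paired by number, Timp3 in iΔEC/iΔEC over loxP/loxP had an adjusted p = 0.567 and Adamts1 an adjusted p = 0.617, and no call changed. In LPS over saline, where the libraries share only a number, the block gave 1925 genes higher and 1063 lower and changed no member's call. Members under about 1 FPKM, such as Timp4, may be limited by depth, which was not tested.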

Other observations

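In iΔEC/iΔEC over loxP/loxP, 4 of the 14 matrix substrates tested had an unadjusted p under 0.05 in limma without pairing. In that fit 4.44% of all genes tested did, or 663 genes, against 1150 genes with the replicate block. All 4 were higher, without overlap of the groups and with adjusted p = 0.960 in limma. They are Col4a1, Col4a2, Lamc1 and Nid1, which encode basement membrane proteins, and they were singled out after their values were seen. Other basement membrane genes of the list had values under 0, with Hspg2 at -0.54, Lamb1 at -0.16 and Lama4 at -0.11, none of them called, and the median of the list was -0.028. Col4a1, a chain of type IV collagen, was at 406, 294 and 339 FPKM in loxP/loxP and 566, 448 and 511 FPKM in iΔEC/iΔEC (log2 fold change 0.56, 95% interval 0.08 to 1.04). Col4a2, its partner chain, was at 306, 231 and 245 FPKM and at 434, 357 and 386 FPKM (0.60, 0.16 to 1.03). Lamc1, the laminin gamma chain, differed by 0.46 (0.10 to 0.83) and Nid1, the nidogen that links laminin to collagen IV, by 0.48 (0.08 to 0.87). The sum of endothelial markers was higher too (3611, 2569 and 3303 against 2854, 2280 and 2375 FPKM), and that of epithelial markers lower (421, 1086 and 834 against 908, 1647 and 2894 FPKM). Of the 8 epithelial markers, 3 had an unadjusted p under 0.05 (Sftpc -1.20, Sftpa1 -0.98 and Ager -0.87) and the median was -0.89. The part of these cells was not tested.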
